A study of Mus musculus with 48 samples.

Results

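The genes described here are 32 nuclear receptors of mouse liver other than the PPARs, the RXRs and the bile acid, oxysterol and xenobiotic receptors. They were chosen by name, as the gene names that the array files give to probes other than controls, and the rule uses no measured value. All 32 had probes on the array, 74 in number, and 25 of the genes were measured above background, against 22029 gene names measured in all. Liver RNA came from 48 male C57BL/6J mice of 20 weeks of age, 1 array a mouse, in 6 groups of 8. The groups were wild-type mice (*WT*), mice carrying floxed *Pparα* and an albumin-driven Cre recombinase, which acts in hepatocytes (*Pparα* hep-/-), and mice without the gene in any cell (*Pparα*-/-), each on a control diet (CTRL) or a high-fat diet with 60% fat (HFD). The labels give 12 weeks of diet, and the text of the study a shorter time. All 6 groups were housed at thermoneutrality and killed in the fed state. The *WT* mice came from a commercial breeder and both deletion lines were bred locally, so that genotype and origin cannot be told apart in a comparison with *WT* mice.

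Nuclear receptors are transcription factors that bind short hormone response elements in DNA and exchange corepressors for coactivators, many of them when a small lipophilic ligand binds. Thyroid hormone, retinoic acid, vitamin D, oestrogen, glucocorticoid and mineralocorticoid receptors have hormones as ligands, whereas the HNF4, COUP-TF, ERR, NR4A, NR2C and GCNF receptors are orphans or act without a classical hormone. In liver, HNF4α maintains hepatocyte identity, LRH-1 drives bile acid synthesis, RORα feeds into the clock, the ERRs drive mitochondrial genes, and the NR4A receptors are induced within minutes of a stimulus.

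Values are log2 of the quantile-normalized spot intensity, so that a difference of 1 is a doubling, and each gene is read on its brightest measured probe. Signals of different probes are not set against each other. Differences were tested with limma across all 33323 probes measured, with a term for the wash batch of the arrays and with array weights, and were called at an adjusted p (Benjamini-Hochberg) of at most 0.05. The fitted difference weights the arrays, and can differ from the difference of the plain group means. The comparisons of a genotype or a diet share groups with each other. The median signal of an array was 56 to 91 against a local background of 20 to 36, and 5 arrays had a weight under 0.5. The 2 tested *Ppara* probes, whose place relative to the deleted exon was not determined here, were lower on HFD by 0.85 and 0.68 in *Pparα* hep-/- and by 1.08 and 1.29 in *Pparα*-/- than in *WT* mice. On CTRL the fall in *Pparα* hep-/- mice was called on 1 of the 2 probes (-0.42 and -0.10). All 6 hepatocyte markers were measured, and their summed log2 level lay between 19.89 and 20.25 on every array. On CTRL it was lower in all *Pparα*-/- mice (20.0 to 20.06) than in all *WT* mice (20.12 to 20.23). Of the 6 markers 3 were lower and 0 higher there (median -0.26), against 35.3% of all genes called. In whole liver fewer cells of a type and less RNA per cell cannot be told apart.

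Detection divided the list first. Of the 25 measured genes, 23 were well above background on all 48 arrays. The exceptions were *Esrrg*, on 39 arrays, and *Nr4a2*, on 43. The 7 receptors that failed the detection filter, which asked for 4 arrays of 8 in some group, were *Vdr*, the vitamin D receptor, with 2 arrays, *Pgr*, the progesterone receptor, with 7, *Hnf4g* with 8, *Nr2e3* with 2, *Nr2e1* and *Nr0b1* with 1 each, and *Rorb* with 0 of the 48 arrays on its best probe. Of all gene names on the array, 59.4% were measured. In 6 measured genes, *Rarg*, *Esr2*, *Esrrb*, *Nr4a3*, *Nr5a1* and *Nr6a1*, every other probe of the gene was above background on at most 2 arrays, so that a single probe carries the value. For *Esr2*, *Esrrb* and *Nr5a1*, whose other probes were at or near background, what the bright probe measures was not determined, and their values are those of that probe. *Nr2f1*, *Nr2f2*, *Nr4a1* and *Nr5a2* had 1 probe on the array.

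Counted over contrasts, the receptors changed about as often as other genes. On HFD against CTRL, 5 of the 25 were called in *WT* mice (19.5% of all genes measured), 4 in *Pparα* hep-/- mice (22.5%) and 5 in *Pparα*-/- mice (26.4%). On the CTRL diet, 5 differed between *Pparα* hep-/- and *WT* mice (25.2%), 7 between *Pparα*-/- and *WT* mice (35.3%) and 9 between the deletion lines (26.6%). On HFD the counts were 5 (28.6%), 10 (47.8%) and 8 (31.9%). The response to the diet differed between *WT* and *Pparα* hep-/- mice for 3 receptors (11.2%), and between *WT* and *Pparα*-/- mice for 3 (15.5%). Between the deletion lines it differed for 0 (3.93%) by limma, with 4 receptors at an unadjusted p under 0.05. Some diet contrast called 12 of the 25 (48.8% of all genes), some genotype contrast 18 (74.2%), some interaction 4 (22.2%), and at least 1 of the 12 contrasts 21 (78.9%). In 8 cases the mice of the 2 groups did not overlap, and these cases fell in 6 receptors. For all genes the share without overlap was 0.631%, 0.667% and 1.64% for diet in *WT*, *Pparα* hep-/- and *Pparα*-/- mice, with 0, 0 and 1 receptors. On CTRL it was 1.39%, 6.63% and 4.79% for the 3 genotype comparisons in the order above, with 0, 2 and 1 receptors, and on HFD 1.53%, 7.21% and 7.05%, with 1, 2 and 1. *Thra* and *Rara*, which encode thyroid hormone and retinoic acid receptors, *Nr2f6*, a COUP-TF relative, and *Nr3c2*, the mineralocorticoid receptor, were called in none on their brightest probe, where over the 9 pairwise contrasts their changes lay within 0.08, 0.20, 0.08 and 0.21 of 0. Dimmer probes differed from this. One of *Nr2f6* was called in all 4 comparisons with *WT* mice (-0.27 to -0.36). One of *Thra* was called on HFD between *Pparα* hep-/- and *WT* mice (0.30) and between the deletion lines (-0.30), and one of *Nr3c2* on HFD in *Pparα* hep-/- mice (-0.27) and between *Pparα*-/- and *WT* mice (-0.20). Leaving out the weights ended 29 of the 64 calls, and 30 of the 64 held under all 13 alternative settings.

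**Figure D1:**
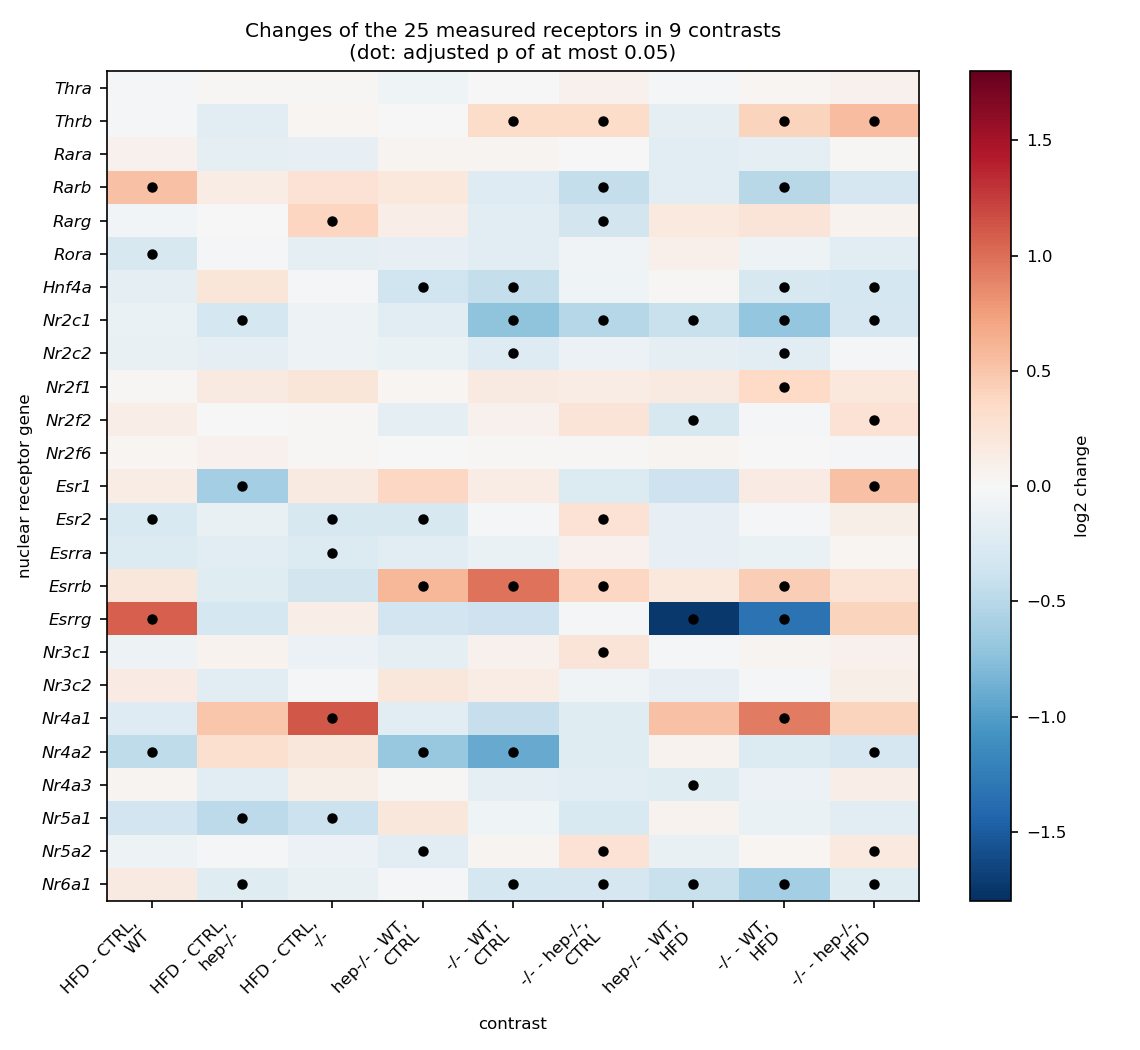
Log2 changes of the 25 measured receptors (rows) in 9 contrasts (columns), from blue (lower) to red (higher), with a dot where the adjusted p was at most 0.05. *Esrrg* has the deepest colours, at -1.73 and -1.33 in the deletion lines against *WT* mice on HFD, and the rows of *Thra*, *Rara*, *Nr2f6* and *Nr3c2* hold no dot.

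*Thrb*, the main thyroid hormone receptor of liver, had its highest signal in *Pparα*-/- mice on both diets. On CTRL its log2 signal ran from 8.68 through a median of 9.45 to 9.73 in *WT* mice, from 8.85 through 9.46 to 9.66 in *Pparα* hep-/- mice and from 9.54 through 9.78 to 10.06 in *Pparα*-/- mice. On HFD the corresponding values were 9.22, 9.42 and 9.65, then 9.18, 9.25 and 9.45, then 9.57, 9.78 and 10.01. On HFD all *Pparα*-/- mice lay above all *Pparα* hep-/- mice (7.05% of all genes without overlap), and the other pairs compared overlapped. The difference between *Pparα*-/- and *Pparα* hep-/- mice was 0.55 ± 0.07 (SE) on HFD (adjusted p = 6.2e-08, limma) and 0.34 ± 0.08 on CTRL (adjusted p = 0.00161). Against *WT* mice it was 0.39 ± 0.08 on HFD, with 0.18 and 0.54 in the wash batches, and 0.34 ± 0.09 on CTRL. Its brightest probe lies at chr14:18868800-18868859 on mm9, the build of the array files. The second probe of *Thrb* was called in the same direction in all of these contrasts, at 0.22 to 0.41. Diet itself moved *Thrb* by -0.03 in *WT* mice, while the changes of *Pparα* hep-/- and *Pparα*-/- mice were -0.19 and 0.03, and none of these was called.

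Of 11 genes of the thyroid hormone axis, 7 were lower and 2 higher in *Pparα*-/- than in *WT* mice on HFD, with a median change of -0.47 (47.8% of all genes called). *Me1*, the malic enzyme, a classical thyroid hormone target, fell by 3.04, and *Slc16a10*, an iodothyronine transporter, rose by 0.57. *Dio1*, the deiodinase that activates thyroxine, rose with the diet in *WT* mice by 1.75, in *Pparα* hep-/- mice by 1.57 and in *Pparα*-/- mice by 1.47.

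Of the retinoic acid receptors, *Rarb* was called in 3 contrasts, *Rarg* in 2 and *Rara* in none, and 4 of these 5 calls ended without array weights. *Rarb*, itself a retinoic acid target, ranged from 7.67 through a median of 8.34 to 9.61 in *WT* mice on CTRL and from 7.93 through 8.67 to 9.42 on HFD, so that the groups overlapped almost fully. Among *Pparα* hep-/- mice it ranged from 8.0 through 8.48 to 9.41 on CTRL and from 8.24 through 8.60 to 8.86 on HFD. Among *Pparα*-/- mice it ranged from 7.38 through 8.10 to 8.28 on CTRL and from 8.06 through 8.26 to 8.44 on HFD, the narrowest ranges of the 3 genotypes. The fitted rise on HFD in *WT* mice was 0.53 ± 0.17 (adjusted p = 0.0247), with 5 of 8 HFD mice above the CTRL mean, and it was 0.26 without array weights (adjusted p = 0.481). On HFD *Rarb* was lower in *Pparα*-/- than in *WT* mice with a log2 change of -0.50 ± 0.15 (adjusted p = 0.00565), a call that ended without weights (-0.40, adjusted p = 0.147). Its second probe gave 0.07 for that comparison, opposite in sign. *Rarg* rose on HFD in *Pparα*-/- mice by 0.39 ± 0.12 (adjusted p = 0.0114, and 0.0939 without weights). The *Rarg* changes of *WT* and *Pparα* hep-/- mice were -0.05 and 0.01, not called, and neither differed in response from *Pparα*-/- mice by the test (adjusted p = 0.0818 and 0.204). On CTRL the brightest *Rarb* probe was lower in *Pparα*-/- than in *Pparα* hep-/- mice, at -0.42 ± 0.16 (adjusted p = 0.0417, and 0.0609 without weights), whereas the second probe gave 0.22, not called, and the mean over probes -0.10 (adjusted p = 0.651). *Rarg* was lower there too, at -0.32 ± 0.12 (adjusted p = 0.0395, 0.0632 with a replicate block and 0.0706 without the filter on dim probes).

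Of 12 measured genes of retinoid handling and response, 2 were higher and 2 lower in *Pparα*-/- than in *WT* mice on HFD, where 47.8% of all genes were called. *Cyp26a1*, which degrades retinoic acid, fell by 2.73 in that comparison, and *Lrat*, which esterifies retinol for storage, was higher by 0.74 on HFD in *Pparα* hep-/- mice than in the *WT* group. Of 3 measured genes of vitamin D handling 2 were lower and 1 higher on HFD in *Pparα*-/- mice than in the *WT* group, with the sterol and vitamin D hydroxylase *Cyp27a1* at -1.18, while the receptor *Vdr* was not well above background.

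Among steroid receptors, *Esr1*, the oestrogen receptor of hepatocytes, fell on HFD in *Pparα* hep-/- mice. Its log2 signal there ran from 9.68 through a median of 10.53 to 10.71 on CTRL and from 9.15 through 9.72 to 10.34 on HFD, with all 8 HFD mice below the CTRL mean. In *WT* mice it ran from 9.23 through 10.01 to 11.21 on CTRL and from 9.88 through 10.19 to 11.02 on HFD. Among *Pparα*-/- mice it ran from 9.57 through 10.22 to 10.74 on CTRL and from 9.55 through 10.26 to 11.02 on HFD. The fall was -0.61 ± 0.21 (adjusted p = 0.0302), -1.07 in the first wash batch and -0.32 in the second, and the call ended without weights (-0.68, adjusted p = 0.10). The difference in response from *WT* or *Pparα*-/- mice did not pass the threshold (smallest adjusted p of the interactions 0.121). On HFD *Esr1* was 0.53 ± 0.20 higher in *Pparα*-/- than in *Pparα* hep-/- mice (adjusted p = 0.0379, and 0.13 without weights), a call made on none of the 5 other tested probes (0.06 to 0.54). For the fall in *Pparα* hep-/- mice 3 of these 5 were called, all 5 having the same sign. The second-brightest *Esr1* probe, of another transcript, was called at -1.22 on HFD in *WT* mice (adjusted p = 0.0124) and at -1.13 for *Pparα* hep-/- against *WT* mice on CTRL (adjusted p = 0.0129), where the brightest gave 0.14 and 0.37, not called.

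*Esr2* was lower on HFD in *WT* (-0.28 ± 0.07, adjusted p = 0.00271, and 0.0509 without weights) and *Pparα*-/- mice (-0.29 ± 0.06, adjusted p = 0.000396). The change of *Pparα* hep-/- mice was -0.13 ± 0.06, not called (adjusted p = 0.0902), and no difference in response passed the threshold (smallest adjusted p 0.307). In *Pparα*-/- mice it ran from 11.20 through 11.25 to 11.36 on CTRL and from 10.83 through 11.04 to 11.10 on HFD, without overlap (1.64% of all genes). On CTRL *Esr2* was lower in *Pparα* hep-/- mice than in the *WT* group (-0.28 ± 0.07, adjusted p = 0.00102) and than in *Pparα*-/- mice (0.27 ± 0.06, adjusted p = 0.000813). The *Pparα*-/- mice all lay above the *Pparα* hep-/- mice there (4.79% of all genes without overlap). The other *Esr2* probe, of the same transcript, was above background on 0 arrays. *Nr3c1*, the glucocorticoid receptor, was called once, 0.24 ± 0.06 higher in *Pparα*-/- than in *Pparα* hep-/- mice on CTRL (adjusted p = 0.00499). Of 14 glucocorticoid genes, 6 were higher and 1 lower in *Pparα* hep-/- than in *WT* mice on HFD, where 28.6% of all genes were called. *Mt2*, a metallothionein, was 1.81 higher and *Serpina6*, the corticosteroid-binding globulin, fell by 0.53.

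The ERR family held the largest change of the list. *Esrrg* (ERRγ), an orphan receptor that in liver takes part in fasting metabolism, rose on HFD in *WT* mice, and its response there differed from that of both deletion lines. Its log2 signal in *WT* mice ran from 5.28 through a median of 6.30 to 7.49 on CTRL and from 6.23 through 7.67 to 8.42 on HFD. It ran from 5.12 through 6.28 to 6.46 on CTRL and from 5.33 through 5.76 to 6.44 on HFD in *Pparα* hep-/- mice. The *Pparα*-/- mice ran from 5.70 through 5.95 to 7.02 on CTRL and from 6.09 through 6.23 to 6.67 on HFD. Of the 8 *WT* mice on HFD, 6 lay above every mouse of the deletion lines and 2 among them. The arrays of these 2 had weights of 0.343 and 0.537, and the array of 1 of the 6, at 7.89, had a weight of 0.372. The probe lies at chr1:190038683-190038742 (mm9). The signal was dim, well above background on 6 and 8 *WT* arrays, 7 and 4 *Pparα* hep-/- arrays, and 6 and 8 *Pparα*-/- arrays on CTRL and HFD.

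The rise in *WT* mice was 1.07 ± 0.24 (2.1-fold, adjusted p = 0.00114), 1.00 in the first and 1.15 in the second wash batch. The changes of -0.31 ± 0.20 in *Pparα* hep-/- mice and 0.12 ± 0.21 in *Pparα*-/- mice were not called. The response was larger for *WT* mice, by 1.39 ± 0.32 against *Pparα* hep-/- (adjusted p = 0.00392) and by 0.95 ± 0.32 against *Pparα*-/- mice (adjusted p = 0.0381). Without array weights these differences were 1.35 (adjusted p = 0.0734) and 0.98 (adjusted p = 0.114). On HFD *Esrrg* was lower than in *WT* mice at -1.73 ± 0.21 (adjusted p = 3.19e-08) when hepatocytes lacked *Pparα* and at -1.33 ± 0.21 (adjusted p = 1.03e-06) when the whole body did, and both calls held in all 13 alternatives. From the scanner's processed signal the rise in *WT* mice was 1.73, the first of these differences -2.73 and the difference in response from *Pparα* hep-/- mice 2.33. On CTRL the corresponding changes were -0.35 and -0.38, not called. The second tested probe gave 0.88 for the rise in *WT* mice (adjusted p = 0.000367), and 1.12 (adjusted p = 0.00182) and 0.61 (adjusted p = 0.076) for the differences in response. On CTRL that probe, above background on 17 arrays, was called lower in *Pparα*-/- than in *WT* mice (-0.48, adjusted p = 0.0339). For *Pparα* hep-/- mice it gave -0.34 there, not called. The 8 stellate and 7 Kupffer cell markers measured had median changes of -0.04 and 0.04 on HFD in *WT* mice. Against *WT* mice on HFD, 6 and 4 of them were higher in *Pparα* hep-/- mice (medians 0.87 and 0.80) and 8 and 6 in *Pparα*-/- mice (medians 1.03 and 1.20), where 28.6% and 47.8% of all genes were called. Their part in the lower *Esrrg* signal was not tested.

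**Figure D2:**
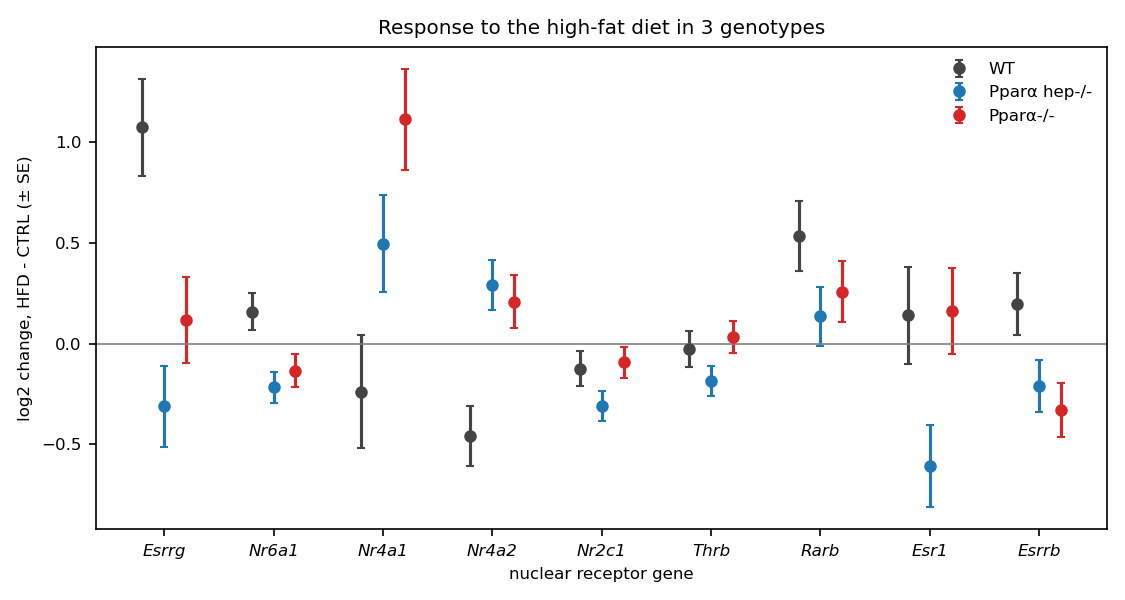
Log2 change on HFD against CTRL, with its standard error, for the 9 receptors described in full, in *WT* (grey), *Pparα* hep-/- (blue) and *Pparα*-/- mice (red). *Esrrg* stands at 1.07 in *WT* mice and at -0.31 and 0.12 in the deletion lines, and *Nr4a1* at -0.24, 0.50 and 1.11 in the same order.

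*Esrrb* (ERRβ) went the other way, being higher in the deletion lines on CTRL. It ran from 6.67 through 6.99 to 7.29 for *WT*, from 6.55 through 7.49 to 8.45 for *Pparα* hep-/- and from 7.48 through 7.99 to 8.29 for *Pparα*-/- mice. All *Pparα*-/- mice lay above all *WT* mice (6.63% of all genes). The difference from *WT* mice was 0.60 ± 0.15 in *Pparα* hep-/- (adjusted p = 0.00199) and 0.97 ± 0.16 in *Pparα*-/- mice (adjusted p = 2.05e-06). On HFD it was 0.45 ± 0.13 in *Pparα*-/- mice (adjusted p = 0.00537) and 0.19 ± 0.13 in *Pparα* hep-/- mice, not called. *Esrrb* on HFD ran from 6.63 through 7.14 to 7.53 for *WT*, from 7.04 through 7.40 to 7.70 for *Pparα* hep-/- and from 7.48 through 7.58 to 8.12 for *Pparα*-/- mice. Between the deletion lines on CTRL the difference was 0.37 ± 0.14 (adjusted p = 0.045, and up to 0.115 in the alternatives). The value rests on 1 probe, at chr12:87862509-87862568 (mm9), the other being above background on 1 array. *Esrra* (ERRα), which drives respiratory chain genes, was called once, at -0.24 ± 0.08 on HFD in *Pparα*-/- mice (adjusted p = 0.0277, and 0.0964 without weights). Its *WT* change was of the same size, -0.24 ± 0.09 (adjusted p = 0.0642). When hepatocytes lacked *Pparα* it was -0.19 ± 0.08 (adjusted p = 0.0836), and neither was called. Of 9 genes known as ERR targets, 3 were higher on HFD in each genotype and 1 lower in *Pparα*-/- mice (19.5%, 22.5% and 26.4% of all genes called for *WT*, *Pparα* hep-/- and *Pparα*-/- mice), with *Acadm*, a fatty acid oxidation enzyme, among the higher at 0.64, 0.52 and 0.54 for *WT*, *Pparα* hep-/- and *Pparα*-/- mice. On CTRL *Pdk4*, a brake on pyruvate oxidation, was 2.69 above *WT* mice in *Pparα* hep-/- mice, and *Idh3a*, of the citric acid cycle, was lower in *Pparα*-/- than in *WT* mice on HFD (-0.55).

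*Nr2c1* (TR2), an orphan receptor that binds direct repeats and often represses, had its lowest signal in *Pparα*-/- mice on either diet. On CTRL it ran from 9.90 through 10.16 to 10.64 for *WT*, from 9.83 through 9.99 to 10.48 for *Pparα* hep-/- and from 9.34 through 9.57 to 9.98 for *Pparα*-/- mice. On HFD it ran from 10.04 through 10.103 to 10.32 for *WT*, from 9.60 through 9.75 to 10.01 for *Pparα* hep-/- and from 9.32 through 9.46 to 9.62 for *Pparα*-/- mice. On HFD the *WT* mice lay above all mice of both deletion lines (1.53% and 7.21% of all genes for the 2 comparisons), and the deletion lines overlapped each other. The probe lies at chr10:93659793-93659852 (mm9).

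Against *WT* mice the change of *Nr2c1* in *Pparα*-/- mice was -0.72 ± 0.09 on CTRL (adjusted p = 7.66e-09) and -0.69 ± 0.08 on HFD (adjusted p = 3.44e-10). The *Pparα* hep-/- difference from *WT* was -0.40 ± 0.08 on HFD (adjusted p = 0.000134). *Pparα*-/- mice were also lower than *Pparα* hep-/- mice, at -0.51 ± 0.08 on CTRL and -0.30 ± 0.07 on HFD, and with the diet *Nr2c1* fell by 0.31 ± 0.07 (adjusted p = 0.00233) in the latter line. These 6 calls held in all 13 alternatives and kept their sign in each wash batch. The second probe was called in the same direction in 5 of them. *Nr2c2* (TR4), the partner of TR2, was lower in *Pparα*-/- than in *WT* mice, at -0.23 ± 0.09 on CTRL (adjusted p = 0.0462) and -0.19 ± 0.08 on HFD (adjusted p = 0.0448), and neither call held without weights (adjusted p = 0.119 and 0.112). With weights both other tested probes of *Nr2c2* were called lower in these comparisons, at -0.28 and -0.33 on CTRL and at -0.29 and -0.35 on HFD.

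*Nr6a1* (GCNF), a receptor known from germ cells and early embryos, read at chr2:38578922-38578981 (mm9), was lower in the deletion lines on HFD. It ran there from 9.03 through 9.38 to 9.55 for *WT*, from 8.77 through 9.01 to 9.23 for *Pparα* hep-/- and from 8.56 through 8.86 to 8.94 for *Pparα*-/- mice. On CTRL it ran from 9.06 through 9.20 to 9.40 for *WT*, from 9.0 through 9.21 to 9.40 for *Pparα* hep-/- and from 8.65 through 8.95 to 9.63 for *Pparα*-/- mice. On HFD all *Pparα*-/- mice lay below all *WT* mice (7.21% of all genes without overlap), while the *Pparα* hep-/- mice overlapped both. The differences from *WT* on HFD were -0.61 ± 0.08 in *Pparα*-/- (adjusted p = 2.46e-08) and -0.40 ± 0.08 in *Pparα* hep-/- mice (adjusted p = 0.000252). The diet response of *WT* mice was 0.37 ± 0.12 above that of *Pparα* hep-/- mice (adjusted p = 0.0393, and 0.346 without weights). On CTRL *Nr6a1* in *Pparα*-/- mice was lower than in *WT* (-0.32 ± 0.09) and *Pparα* hep-/- mice (-0.30 ± 0.08), and on HFD lower than in *Pparα* hep-/- mice (-0.21 ± 0.08), where it also fell with the diet by 0.22 ± 0.08. None of these 4 calls held without weights (adjusted p = 0.0796 to 0.349). *Nr5a1* (SF-1), the steroidogenic factor, fell by 0.48 ± 0.13 on HFD when hepatocytes lacked *Pparα* (adjusted p = 0.00676, with 5 of 8 mice below the CTRL mean), at -0.26 without weights (adjusted p = 0.447) and -0.33 without the wash term (adjusted p = 0.11), and in *Pparα*-/- mice by 0.39 ± 0.13 (adjusted p = 0.0286, and 0.0926 without weights). In *WT* mice the *Nr5a1* change was -0.34 ± 0.15, not called (adjusted p = 0.115), with group means of 8.64 on CTRL and 8.22 on HFD, and the *WT* response did not differ by the test from that of either line (adjusted p = 0.70 and 0.899).

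*Hnf4a* was somewhat lower in the deletion lines on CTRL. It ran from 15.29 through 15.77 to 16.07 for *WT*, from 15.24 through 15.34 to 15.84 for *Pparα* hep-/- and from 15.11 through 15.27 to 15.62 for *Pparα*-/- mice, with overlap. The differences from *WT* were -0.36 ± 0.10 (adjusted p = 0.00802) and -0.43 ± 0.11 (adjusted p = 0.00144), and both held in all 13 alternatives. In these comparisons 2 and 3 of the 6 hepatocyte markers were lower and 0 higher (medians -0.02 and -0.26), against 25.2% and 35.3% of all genes called. Their part in the *Hnf4a* difference was not tested. On HFD *Hnf4a* was lower in *Pparα*-/- than in *WT* mice (-0.29 ± 0.09, adjusted p = 0.0103) and than in *Pparα* hep-/- mice (-0.31 ± 0.09, adjusted p = 0.00489, and -0.24 with adjusted p = 0.109 without weights). The second *Hnf4a* probe was called for *Pparα* hep-/- against *WT* mice on CTRL (-0.39, adjusted p = 0.0233). In the other comparisons where the brightest was called it had the same sign and was not called (-0.20 to -0.30, adjusted p = 0.0804 to 0.165). *Nr5a2* (LRH-1) was 0.26 ± 0.07 higher in *Pparα*-/- than in *Pparα* hep-/- mice on CTRL (adjusted p = 0.00472) and 0.17 ± 0.07 higher on HFD (adjusted p = 0.0413), and on CTRL it was lower in *Pparα* hep-/- mice than in the *WT* group (-0.21 ± 0.08, adjusted p = 0.0404). The last 2 of these calls were lost without weights (adjusted p = 0.152 and 0.187). Of 15 genes known as targets of HNF4 or LRH-1, 6 were higher and 3 lower in *Pparα*-/- than in *WT* mice on CTRL (35.3% of all genes), with *Cyp8b1*, the sterol 12-hydroxylase, at 0.91. On HFD in *Pparα* hep-/- mice 3 rose and 7 fell (22.5%).

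The COUP-TF genes differed little. *Nr2f1* exceeded the *WT* level by 0.36 ± 0.08 in *Pparα*-/- mice on HFD (adjusted p = 0.000578), running from 7.69 through 8.02 to 8.43 in *WT* and from 8.13 through 8.46 to 8.79 in *Pparα*-/- mice. In the same comparison all 8 stellate, 6 of 7 Kupffer and 4 of 7 sinusoidal endothelial cell markers were higher. Of the endothelial markers 1 was lower, and 47.8% of all genes were called. *Nr2f2* was lower in *Pparα* hep-/- mice on HFD than in *WT* (-0.29 ± 0.09, adjusted p = 0.0138) and *Pparα*-/- mice, where the change was 0.27 ± 0.08 (adjusted p = 0.0126), and neither call held without weights (adjusted p = 0.279 and 0.107). *Rora* was called once, at -0.29 ± 0.10 on HFD in *WT* mice (adjusted p = 0.0434, and 0.127 without weights), with -0.04 and -0.16 in *Pparα* hep-/- and *Pparα*-/- mice, not called, and no difference in response past the threshold (smallest adjusted p 0.243). A dimmer probe of another *Rora* transcript, above background on 21 arrays, was called in *WT* mice in the other direction, at 0.34 (adjusted p = 0.0376). Of 11 clock genes measured, 2 were higher and 3 lower when *Pparα* hep-/- and *WT* mice were compared on CTRL (25.2% of all genes), with *Nr1d1* at -1.63 and *Arntl* at 1.58.

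The NR4A receptors have no cavity for a classical ligand and are governed by their own transcription, so their promoters are shown. In RefSeq (GRCm38.p6) the 250 bases before the start of each gene hold 4 copies of TGACG, the core of the cAMP response element, counted on both strands. The copies stand in capitals, as TGACG or as CGTCA, its reverse complement.
Nr4a1, chr15:101266596-101266845, plus strand: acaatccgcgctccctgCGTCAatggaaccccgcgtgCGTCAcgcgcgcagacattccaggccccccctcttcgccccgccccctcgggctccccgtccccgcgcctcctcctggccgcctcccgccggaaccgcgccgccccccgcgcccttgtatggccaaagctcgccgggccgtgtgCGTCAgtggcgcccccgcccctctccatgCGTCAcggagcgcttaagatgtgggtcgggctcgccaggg
Nr4a2, chr2:57124004-57124253, minus strand: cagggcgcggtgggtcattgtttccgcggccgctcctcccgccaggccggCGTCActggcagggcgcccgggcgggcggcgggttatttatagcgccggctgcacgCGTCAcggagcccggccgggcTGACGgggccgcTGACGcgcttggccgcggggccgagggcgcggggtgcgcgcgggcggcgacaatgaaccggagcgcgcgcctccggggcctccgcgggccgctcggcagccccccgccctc
Nr4a3, chr4:48045055-48045304, plus strand: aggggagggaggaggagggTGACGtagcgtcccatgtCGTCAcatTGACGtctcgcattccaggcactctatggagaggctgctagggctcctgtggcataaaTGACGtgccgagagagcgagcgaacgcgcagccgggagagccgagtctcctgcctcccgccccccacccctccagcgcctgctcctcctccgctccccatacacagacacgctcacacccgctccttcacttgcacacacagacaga
Of all 32851 promoters in the table, 17.8% hold at least 1 copy in this window and 45, or 0.137%, hold 4 or more. Of the 28 receptors with a promoter in the table, 11 hold at least 1 copy, and those with 4 are the NR4A genes. A match of 5 letters is a description of sequence and not a binding site. These arrays hold no measurement of binding to them.

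*Nr4a1* (Nur77), read at chr15:101105071-101105130 (mm9), ran in *WT* mice from 8.33 through a median of 9.61 to 10.18 on CTRL and from 8.59 through 9.28 to 10.14 on HFD. The *Pparα* hep-/- mice ran from 8.79 through 9.25 to 9.96 on CTRL and from 9.33 through 10.06 to 10.24 on HFD. The *Pparα*-/- mice ran from 8.29 through 9.05 to 9.92 on CTRL and from 8.80 through 10.09 to 11.14 on HFD. The *Pparα*-/- mice on HFD spread widest, 7 of 8 lying above the CTRL mean and 3 above every mouse of the other groups.

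*Nr4a1* rose on HFD in *Pparα*-/- mice by 1.11 ± 0.25 (2.16-fold, adjusted p = 0.00107), by 1.61 in the first wash batch and 0.69 in the second. It was 0.93 ± 0.25 higher than in *WT* mice on HFD (adjusted p = 0.00171), at 1.27 and 0.70 in the batches. Both calls held in all 13 alternatives. For *Pparα* hep-/- mice the change on HFD was 0.50 ± 0.24 (adjusted p = 0.137) and in *WT* mice -0.24 ± 0.28 (adjusted p = 0.634). The *WT* response was 1.35 ± 0.38 below that of *Pparα*-/- mice (change -1.35, adjusted p = 0.0129), with -2.39 in the first wash batch and -0.44 in the second, and the call ended without weights (-1.13, adjusted p = 0.0722).

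*Nr4a2* (Nurr1), read at chr2:56960699-56960758 (mm9), was higher in *WT* mice on CTRL than in either deletion line. It ran there from 6.53 through 6.85 to 7.29 for *WT*, from 5.73 through 6.24 to 6.58 for *Pparα* hep-/- and from 5.64 through 5.91 to 6.36 for *Pparα*-/- mice. All *Pparα*-/- mice lay below all *WT* mice (6.63% of all genes without overlap). On HFD it ran from 5.87 through 6.38 to 6.96 for *WT*, from 6.07 through 6.45 to 6.96 for *Pparα* hep-/- and from 5.60 through 6.19 to 6.76 for *Pparα*-/- mice, and the 3 groups overlapped. The CTRL differences from *WT* were -0.69 ± 0.14 in *Pparα* hep-/- (adjusted p = 0.000318) and -0.91 ± 0.15 in *Pparα*-/- mice (adjusted p = 3.32e-06), and held in all 13 alternatives. From the scanner's processed signal they were -1.12 and -1.73. On HFD *Nr4a2* fell in *WT* mice by 0.46 ± 0.15 (adjusted p = 0.0222, 0.0533 without the filter on dim probes and 0.078 on the second probe), whereas the changes in *Pparα* hep-/- and *Pparα*-/- mice were 0.29 ± 0.12 and 0.21 ± 0.13, not called. The response of *WT* mice minus that of *Pparα* hep-/- and of *Pparα*-/- mice was -0.75 ± 0.19 (adjusted p = 0.01, and 0.0886 without weights) and -0.67 ± 0.20 (adjusted p = 0.0177), at -1.26 and -1.01 in the first wash batch and -0.40 in the second for both. *Nr4a2* was also lower in *Pparα*-/- than in *Pparα* hep-/- mice on HFD (-0.31 ± 0.12, adjusted p = 0.0466, and 0.134 without weights). The second probe was called in the same direction for the CTRL differences and for both differences in response. It was also called for a rise on HFD in *Pparα* hep-/- mice (0.34, adjusted p = 0.0346). For *Pparα*-/- against *WT* mice on HFD it was called at -0.30 (adjusted p = 0.0432), where the brightest probe gave -0.24, not called. *Nr4a3* (Nor1) was called once, at -0.22 ± 0.09 in *Pparα* hep-/- against *WT* mice on HFD (adjusted p = 0.0458, and 0.259 without weights).

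**Figure D3:**
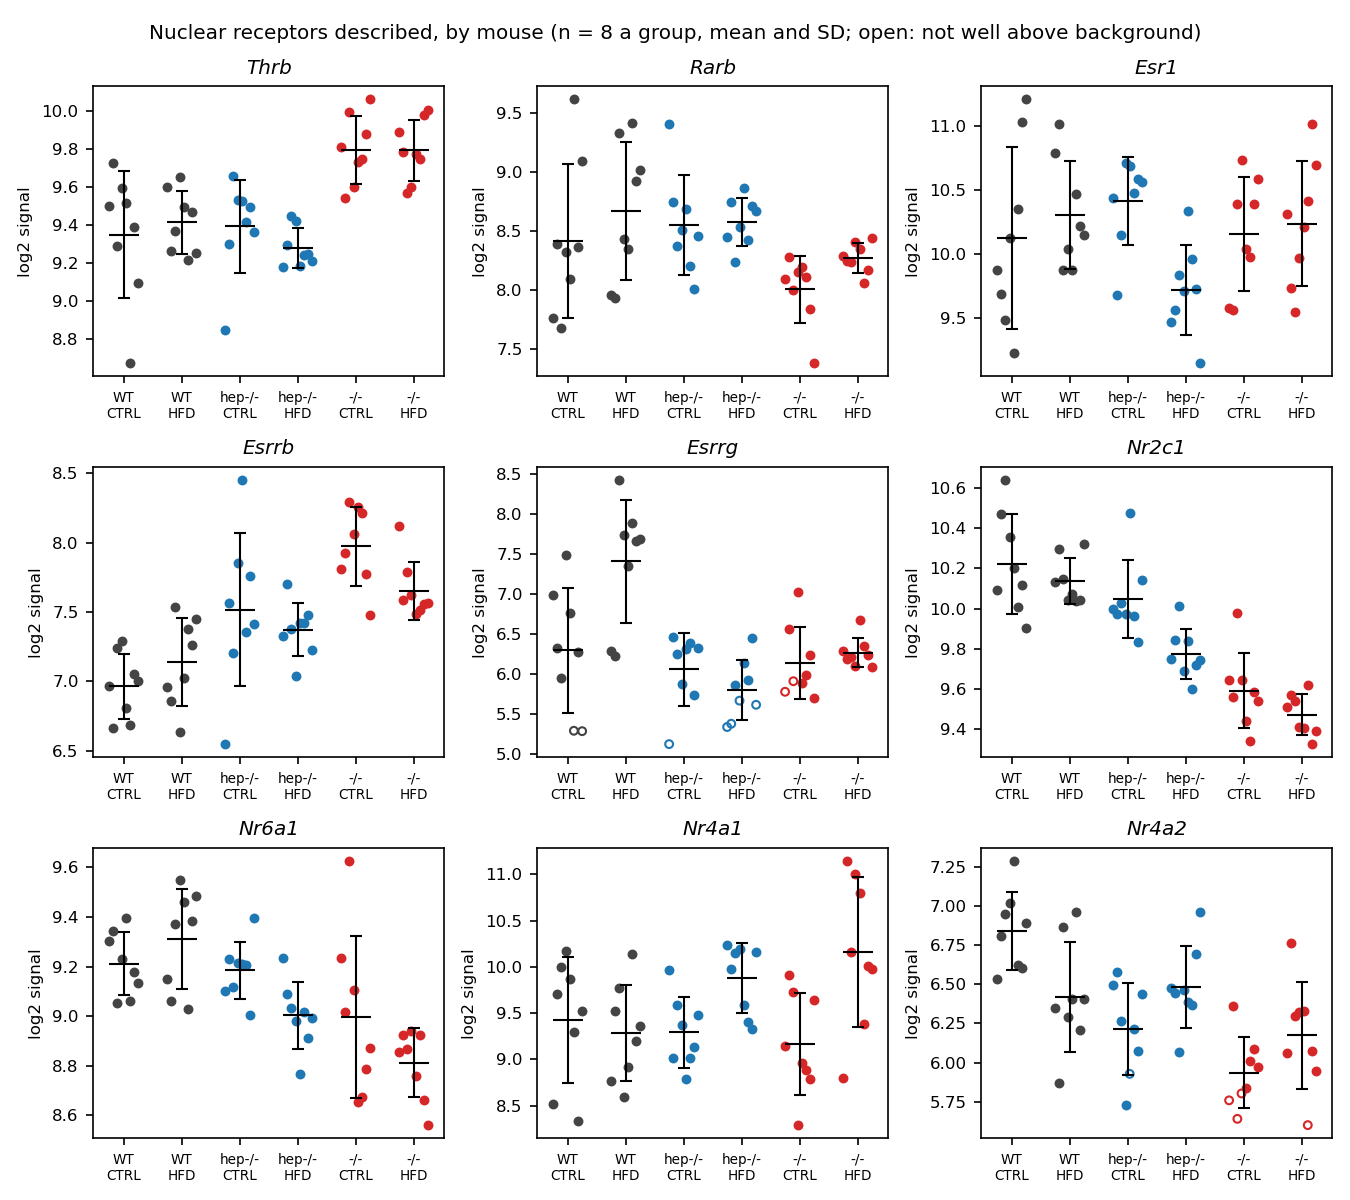
Log2 signal of the 9 receptors described in full, each point 1 mouse, with the mean and SD of the 8 mice of a group. Open points were not well above background. *Nr2c1* steps down from *WT* (medians 10.16 and 10.103) to *Pparα*-/- mice (9.57 and 9.46), and 6 of the *WT* HFD points of *Esrrg* stand above all points of the deletion lines.

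The NR4A genes belong to the immediate early response, and 16 other genes of it were measured. Of these, 9 rose and 1 fell on HFD in *Pparα*-/- mice (median 0.61), 6 rose in *Pparα* hep-/- mice (median 0.36), and 1 rose and 2 fell in *WT* mice (median 0.12), against 26.4%, 22.5% and 19.5% of all genes called. *Egr2*, a zinc finger factor, rose by 1.76 in *Pparα*-/- mice. *Junb* fell by 0.65 in *WT* mice. On CTRL *Nr4a2* was lower in both deletion lines. The 16 genes had a median change against *WT* mice there of 0.15 in *Pparα*-/- and 0.13 in *Pparα* hep-/- mice. Of the 16, 0 were called in *Pparα*-/- mice (35.3% of all genes). In *Pparα* hep-/- mice 2 were higher and 1 lower (25.2%). The medians over all genes measured lay between -0.02 and 0.01 in every pairwise contrast.

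**Figure D4:**
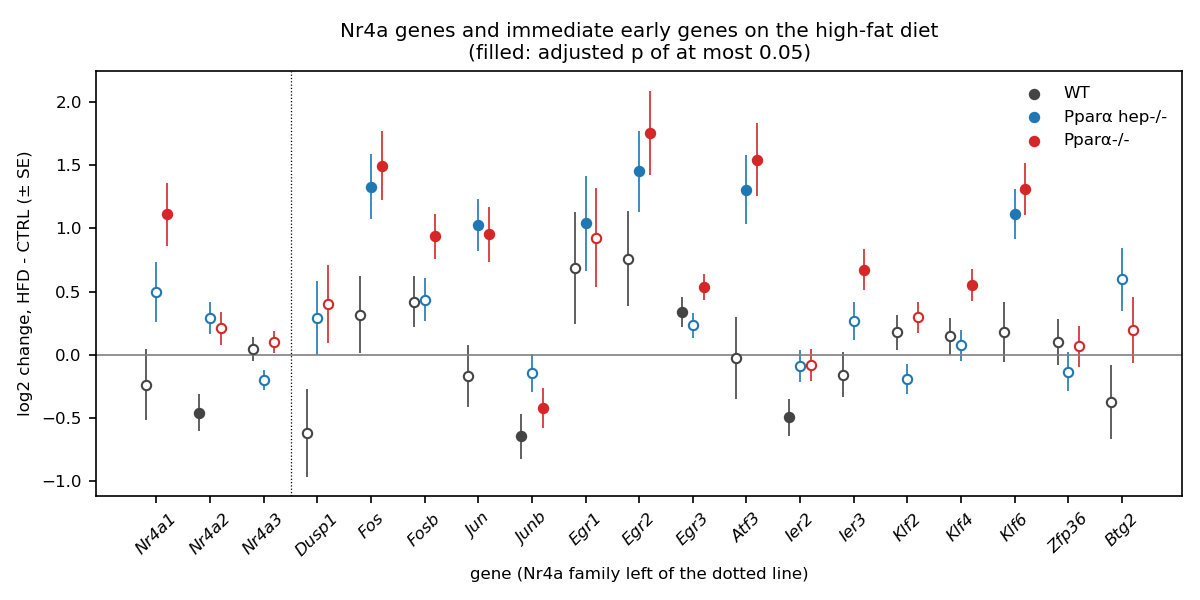
Log2 change on HFD against CTRL, with its standard error, of the 3 NR4A genes (left of the dotted line) and 16 other immediate early genes, in *WT* (grey), *Pparα* hep-/- (blue) and *Pparα*-/- mice (red). Filled points had an adjusted p of at most 0.05, and among the NR4A genes these are *Nr4a1* in *Pparα*-/- mice (1.11) and *Nr4a2* in *WT* mice (-0.46).

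Markers of some other liver cells rose on HFD in *Pparα*-/- mice, as did *Nr4a1*. In that contrast 7 of 8 stellate cell markers and 5 of 7 Kupffer cell and macrophage markers rose, where 26.4% of all genes were called. Of the sinusoidal endothelial markers 1 of 7 rose, and of the cholangiocyte markers 0 of 5. Of 6 T, NK and B cell markers 0 rose and 1 fell. In *Pparα* hep-/- mice, where *Nr4a1* was not called, 4 of 8 stellate and 1 of 7 Kupffer markers rose (22.5% of all genes called). The summed stellate level ran from 15.08 to 16.42 on CTRL and from 16.16 to 16.58 on HFD in *Pparα*-/- mice, and from 14.68 to 16.84 in *WT* mice on HFD. The summed Kupffer level ran from 14.45 to 15.42 and from 15.18 to 16.21 in *Pparα*-/- mice on CTRL and HFD, and from 13.78 to 16.18 in *WT* mice on HFD. Their part in the changes of *Nr4a1*, *Nr2f1* and *Rarg* on HFD was not tested.

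Of 21 coregulators through which these receptors act, 9 were higher and 3 lower in *Pparα*-/- than in *WT* mice on HFD, where 47.8% of all genes were called. *Crebbp*, a histone acetyltransferase coactivator, was 1.52 higher in that comparison, and *Nrip1*, a corepressor, was lower (-0.30). *Nr0b2* (SHP), itself an atypical receptor that represses HNF4α and LRH-1, exceeded the *WT* level on CTRL by 0.81 in *Pparα*-/- and 0.68 in *Pparα* hep-/- mice, and on HFD differed by 0.40 and 0.04, not called.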

How the data were processed

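Total liver RNA, labelled with Cy3, was hybridised to 1-colour Agilent mouse arrays. The deposited spot intensities were extracted from the scans with Feature Extraction 10.10.1.1, per the file headers. The authors also deposited a table of log2 values of 32816 probes, which they had filtered, adjusted for washing bath and quantile normalized, and which was used here only as an alternative. Here log2 median intensities were quantile normalized in R 4.3.3 with limma 3.58.1, control spots and outlier spots (193 values of tested probes) were left out, and spots of a probe were averaged. Only probes flagged well above background on 4 or more arrays of some group of 8 entered the normalization and the tests. The 6 groups were fitted together with limma, with a term for wash batch and with array weights, and p-values were adjusted by Benjamini-Hochberg over 33323 probes. Median signal over background limits the precision of dim probes, and 0 spots were saturated. Alternatives were other normalizations, filters, blocks and weights. The code was tested on simulated data.

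A receptor was described in all groups where it was called with a log2 change of at least 0.5, or in an interaction. From each gene list the called genes with the largest changes in a contrast were named. The receptors and gene lists were chosen with earlier results of these data known.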

Additional observations from a re-analysis of the deposited data

Results flagged for a closer look

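The response to HFD differed between genotypes, by limma's interaction terms, for 4 of the 25 receptors, or 16%, against 22.2% of all genes. Without array weights it differed for 0 receptors between *WT* and *Pparα* hep-/- mice and 1 between *WT* and *Pparα*-/- mice. The shares of all probes were then 0.894% and 5.22%, from 10.4% and 14.3% with weights. *Esrrg* had a larger response in *WT* mice, by 1.385 against *Pparα* hep-/- and by 0.954 against *Pparα*-/- mice on the log2 scale. For *Nr4a2* the response of *WT* mice minus that of the same lines was -0.75 and -0.667. Taken the same way, it was 0.374 for *Nr6a1* against *Pparα* hep-/- mice and -1.351 for *Nr4a1* against *Pparα*-/- mice.

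In 10 of 150 receptor groups of 8 mice, 1 mouse stood apart from the others by Dixon's criterion, and chance gives about 1 group in 20. In *Pparα* hep-/- mice on CTRL these were the lowest *Thrb* (8.848, the next mouse 9.303), the highest *Rarg* (10.688, next 9.934), the lowest *Nr3c2* (8.945, next 9.488) and the highest *Hnf4a* (15.835, next 15.498). The array of the first 3 had a weight of 0.189. In *Pparα* hep-/- mice on HFD they were the lowest *Nr3c2* (8.919, next 9.352) and the lowest *Nr5a2* (11.076, next 11.32). In *Pparα*-/- mice they were the lowest *Rarg* (8.59, next 9.303) and highest *Rora* (13.848, next 13.326) on CTRL, and the highest *Thra* (10.72, next 10.52) and highest *Esrrg* (6.668, next 6.348) on HFD.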

How the results depend on the processing

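All 64 called changes kept their direction under the 13 alternatives, and 30 of them, in 12 receptors, stayed called under each. The number of receptors called moved by over 1.5 times in these cases. For HFD against CTRL in *WT* mice, 5 were called, and 2 without array weights, 3 with slide as a block, 2 without the filter on dim probes and 2 with the threshold for the adjusted p at 0.01. In *Pparα* hep-/- mice, 4 were called, and in the same order 1, then 2 without the filter and 2 at 0.01, besides 2 without the wash term, 7 with the scanner's processed signal and 8 with median centring. In *Pparα*-/- mice, 5 were called, and 2 without weights, 3 without the filter and 2 at 0.01. For *Pparα* hep-/- against *WT* mice on HFD, 5 were called, and 3 without weights, 3 without the filter, 3 at 0.01 and 9 with the processed signal. For *Pparα*-/- against *Pparα* hep-/- mice on HFD, 8 were called, and 2 without weights, 4 without the filter and 3 at 0.01. The differences in response called 3 receptors each, and without weights 0 for *Pparα* hep-/- and 1 for *Pparα*-/- mice, against 1 and 0 at 0.01. They called 10.4% and 14.3% of all probes, 0.894% and 5.22% without weights, and 3.27% and 5.79% at 0.01. The share of all probes called moved too. For HFD against CTRL it was 18.8%, 20.2% and 24.8% in *WT*, *Pparα* hep-/- and *Pparα*-/- mice. Without weights it was 12.6%, 3.81% and 12.1%, and without the filter 7.5%, 6.32% and 10.6%. In *Pparα* hep-/- mice it was 25% with the processed signal and 22.9% with median centring. For the genotype comparisons on HFD above it was 26.7% and 30.6%, and without weights 9.74% and 18.1%. The cause of these shifts was not tested.

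Among all called probes the share of higher ones moved by over 10 points with median centring, from 46.8% to 33.4% for HFD in *Pparα* hep-/- mice, from 49.3% to 36.2% in *Pparα*-/- mice, and on HFD against *WT* mice from 49.7% to 37.7% and from 47.6% to 36.8%. With the processed signal it was 34.6% for HFD in *Pparα* hep-/- mice and 37.8% for *Pparα* hep-/- against *WT* mice. For the difference in response between *WT* and *Pparα* hep-/- mice it went from 55.6% to 68.3% with median centring, 68.6% with the processed signal, 71.8% without array weights and 66.6% at 0.01, and between *WT* and *Pparα*-/- mice from 51.7% to 65.5% with the processed signal. Of 120 same-numbered pairs of arrays, 35 correlated above 0.1, and 11 of the 48 arrays were closest to an array of the same replicate number. Pairs of different numbers were not counted, so these values cannot settle whether the replicate numbers pair the mice. With the number as a replicate block, the receptors called were 4, 3 and 5 for HFD in *WT*, *Pparα* hep-/- and *Pparα*-/- mice, 4, 6 and 6 for the genotypes on CTRL, 4, 9 and 9 on HFD, and 3, 3 and 0 for the interactions. The shares of all probes called were then 15.7%, 18.8% and 26.1% for the diet and 22.5%, 31.9% and 24.2% for the genotypes on CTRL. On HFD they were 22.4%, 45% and 30.6%, and for the interactions 6.83%, 13.3% and 2.78%.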
